A study of Mus musculus with 4 samples.

Results

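Genes of the lysosome and of autophagy were examined in whole hearts of mice, on 1-colour oligonucleotide arrays of total RNA. The genes were taken by name: subunits of the vacuolar proton pump (symbols starting with Atp6v), lysosome-associated membrane proteins (Lamp plus a digit), the LC3 and GABARAP families (Map1lc3, Gabarap), autophagy-related genes (Atg plus a digit) and cathepsins (Cts plus 1 letter or digit), without Ctsl, Ctss and Ctsk. The rule uses symbols and no measured value, though the group was proposed with earlier results of these data known. It gave 39 of the 8251 genes named on the array, measured by 55 of 12422 probe sets, and a probe set is the group of probes summarised as 1 transcript signal. Heterozygous mice were compared with wild-type mice, and every genotype was represented by 2 RNA pools of 5 hearts each. The gene in which the mice were heterozygous is not reported here. All animals were adult males of 8 to 16 weeks of the 129/Black Swiss background. The labels do not say whether the 2 pools of a genotype came from separate animals or separate preparations. The p-values therefore rest on the spread between the 2 pools within each genotype, which may be technical. In whole-heart RNA, fewer cells of a type and less RNA per cell cannot be told apart.

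Lysosomes are acidic organelles in which cathepsins and other hydrolases break down proteins, lipids and sugars. The vacuolar ATPase acidifies them: its V1 sector in the cytosol hydrolyses ATP, and its V0 sector in the membrane carries the protons. In macroautophagy, a membrane sheet closes around cytoplasm or organelles and fuses with a lysosome. LC3 and GABARAP proteins are attached to the lipid of that membrane by a conjugation system of ATG proteins, and they recruit cargo receptors. In heart muscle, whose cells rarely divide, this route is known for clearing damaged mitochondria and protein aggregates.

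The arrays of the 4 pools were close to each other within a genotype, with correlations across tested probe sets of 0.970 between the heterozygous pools and 0.971 between the wild-type pools, and of 0.845 to 0.856 between genotypes. Large gene groups other than those of the lysosome moved with genotype. The tested cardiomyocyte markers (20 of 21 listed) had a summed signal of 1231082 and 1238932 in the heterozygous pools, against 828091 and 755994 in the wild-type pools, and their median log2 change was 0.67. All 20 tested lymphocyte and thymus markers fell (20 of 23 listed), with sums of 22084 and 21492 in the heterozygous pools against 167772 and 168140 in the wild-type pools. Among all tested named genes 19.5% rose and 19.5% fell (limma, Benjamini-Hochberg adjusted p under 0.05). Of the endothelial markers 9 of 10 tested rose (90%). Of the fibroblast markers 8 of 11 tested rose (72.7%) and 1 fell (Thy1, which also marks T cells). None of these markers was listed at 0. Signals are scaled within an array, so they are shares of what it measured, and the part of these groups in the values below was not tested.

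Of the 39 genes, 36 were bright enough to test, and a gene was represented by its brightest tested probe set. In the heterozygous pools 10 genes rose, or 27.8% of those tested, and 4 fell, or 11.1%. Among all 5692 tested named genes, 19.5% rose and 19.5% fell at the same threshold (limma, Benjamini-Hochberg adjusted p under 0.05). The other 22 genes did not pass. The median log2 change was 0.26 over the 36 genes and 0.02 over all tested named genes, and it lay below the 0.67 of the cardiomyocyte markers. The genotypes did not overlap for 26 genes, or 72.2%, against 70.7% of all tested named genes. Rises were found among LC3 and GABARAP genes, Atg13, Lamp1, pump subunits and 3 cathepsins, and decreases among 3 cathepsins and 1 pump subunit, as the plot of log2 changes by role shows.

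**Figure D1:**
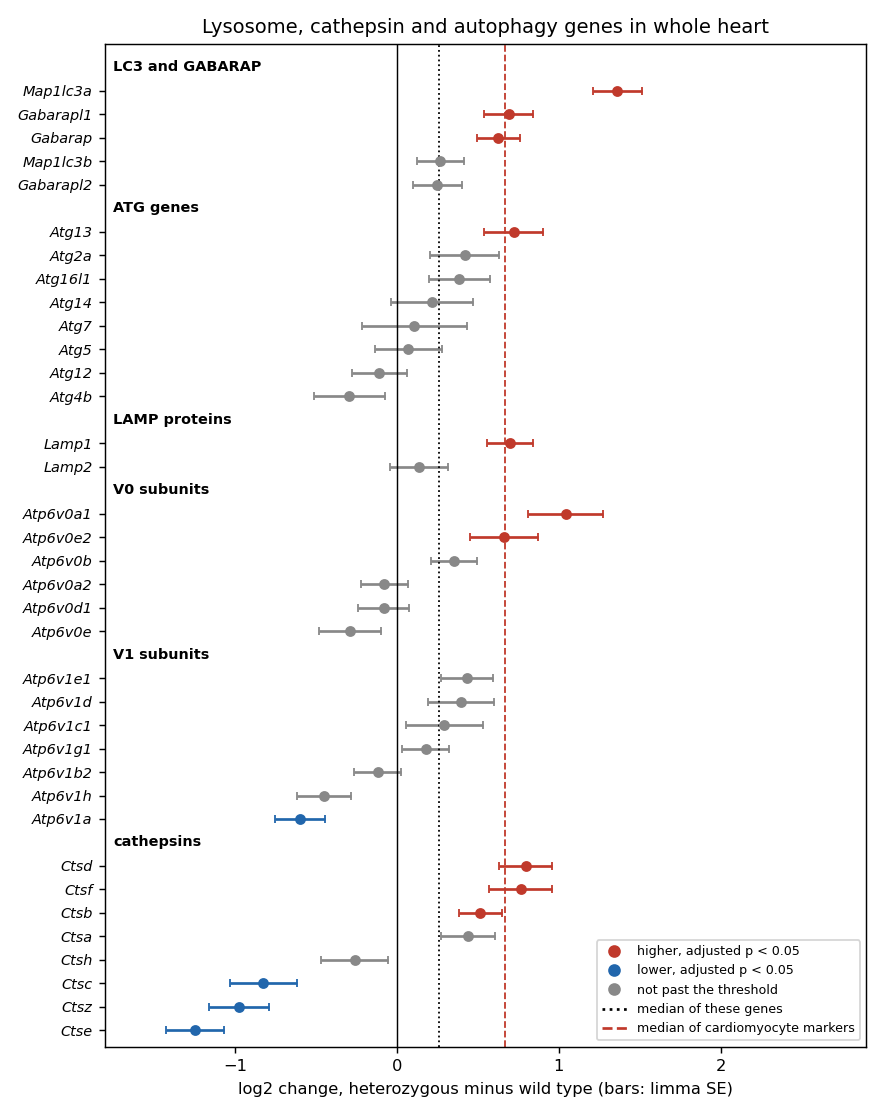
Log2 change of the 36 tested genes, heterozygous minus wild type (2 pools each), grouped by role. Points are limma estimates with SE, coloured by call, the dotted line is the genes' median of 0.26 and the dashed line the cardiomyocyte markers' median of 0.67. On the deposited scale the values run from -1.25 for Ctse to 1.36 for Map1lc3a.

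The counts depended on which pools and which scale were used. Without heterozygous pool 1, 3 of the 36 genes were called higher and 2 lower, and without heterozygous pool 2, 3 were called higher and 3 lower. Calls over all tested probe sets numbered 1708 and 1707 in these fits of 3 arrays, against 2856 with all 4. With dim probe sets kept, 2 genes passed as higher (Map1lc3a and Gabarap) and 2 as lower (Ctse and Ctsz). Shifting the arrays to a common median raised every log2 change by 0.18, and 15 genes were then called higher and 3 lower. Higher calls made up 62.5% of all calls on that scale, against 46.8% as deposited. Centring the arrays on the cardiomyocyte markers lowered every log2 change by 0.66. With it Map1lc3a was the 1 gene called higher and 16 genes were called lower, and 4.44% of all calls were higher.

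Many lysosomal genes carry a palindromic E-box in the promoter, whose core is CACGTG and which the MiT/TFE transcription factors (Tfeb, Tfe3, Mitf) are known to bind. RefSeq promoter sequences (GRCm38.p6, 250 bases before to 50 after the start) matched 27 of the 39 genes, with 28 promoters. The letters CACGTG, a palindrome that reads alike on both strands, were found in 11 of the 28 promoters, or 39.3%, and in 7.15% of all 32851 mouse promoters of the same length. The longer palindrome TCACGTGA, which contains CACGTG, was found in 5 of them, or 17.9%, against 0.974% of all promoters. Of the 11 genes with CACGTG, 3 rose (Ctsd, Ctsf and Lamp1), 1 fell (Atp6v1a) and 7 did not pass. Of all 27 genes with a promoter sequence, 8 rose, 3 fell, 14 did not pass and 2 were not tested. Matching letters describe the sequence and are not evidence of a bound site. The genes with CACGTG before the start are shown by 90 bases each, all upstream of the annotated start and read along the gene's strand, with every CACGTG in capitals. The genes that were called come first, because they show the same letters in promoters of genes that rose and of a gene that fell.
Lamp1: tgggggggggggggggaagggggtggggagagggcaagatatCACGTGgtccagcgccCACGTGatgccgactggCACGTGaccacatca
Ctsd: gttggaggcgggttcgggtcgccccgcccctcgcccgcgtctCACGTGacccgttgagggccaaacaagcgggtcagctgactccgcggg
Ctsf: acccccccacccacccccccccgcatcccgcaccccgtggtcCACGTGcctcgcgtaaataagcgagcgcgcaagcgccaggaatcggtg
Atp6v1a: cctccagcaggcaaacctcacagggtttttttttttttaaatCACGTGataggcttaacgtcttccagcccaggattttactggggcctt
Ctsa: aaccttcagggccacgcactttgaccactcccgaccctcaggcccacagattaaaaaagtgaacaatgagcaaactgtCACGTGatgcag
Atp6v0b: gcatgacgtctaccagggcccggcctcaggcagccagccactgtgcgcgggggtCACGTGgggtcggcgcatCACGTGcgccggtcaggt
Atg5: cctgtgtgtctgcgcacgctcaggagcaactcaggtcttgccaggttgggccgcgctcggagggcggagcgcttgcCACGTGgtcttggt
Atg7: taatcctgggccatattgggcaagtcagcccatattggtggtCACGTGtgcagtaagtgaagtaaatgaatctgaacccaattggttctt
On GRCm38.p6 the Lamp1 stretch is chr8:13159058-13159147 (plus strand), with 3 of the 4 copies that lie before the start of that gene. The Ctsd stretch is chr7:142387878-142387967 (minus strand), with 1 of 2 copies, the one inside TCACGTGA. The Ctsf stretch is chr19:4855044-4855133 (plus strand) and the Atp6v1a stretch is chr16:44139343-44139432 (minus strand). The Ctsa stretch is chr2:164833683-164833772 (plus strand) and the Atp6v0b stretch, with 2 copies, is chr4:117887330-117887419 (minus strand). The Atg5 stretch is chr10:44268249-44268338 and the Atg7 stretch chr6:114670922-114671011 (both plus strand). In Ctsa and Atg5 the letters begin 12 and 14 bases before the start, and in Ctsd 98 bases before it.

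The LC3 and GABARAP genes encode the ubiquitin-like proteins that are conjugated to the autophagosome membrane. All 5 measured members were higher in both heterozygous pools than in either wild-type pool, with log2 changes of 0.25 to 1.36. The genotypes also did not overlap, in either direction, for 70.7% of all tested named genes. By limma 3 of the 5 rose (60%), against 19.5% of all tested named genes. Gabarap (-0.03), Gabarapl2 (-0.41) and Map1lc3b (-0.39) turned below 0 when arrays were centred on cardiomyocyte markers. Gabarapl1 lost its call under that centring (0.03). Map1lc3a, an LC3 isoform, had signals of 25330 and 22214.7 in the heterozygous pools, against 10143.4 and 8391.7 in the wild-type pools. The genotypes did not overlap, and the 2 heterozygous pools lay far above both wild-type pools. It averaged 23772 ± 2200 in heterozygous and 9268 ± 1240 in wild-type pools (SD, n = 2 each), a rise of 2.57-fold (log2 change 1.36, SE 0.15, limma adjusted p = 2.33e-04). It was called higher in all of the 17 alternatives, with log2 changes of 0.70 to 1.54.

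Gabarap, the founding member of its family, had 13805.7 and 13697.3 in the heterozygous pools, against 8627.4 and 9191.6 in the wild-type pools (1.54-fold, log2 change 0.63, SE 0.13, limma adjusted p = 0.00582). Gabarapl1, its close relative, had 5682.5 and 5730.8 in the heterozygous pools, against 3269 and 3827.5 in the wild-type pools (1.61-fold, log2 change 0.69, SE 0.15, limma adjusted p = 0.00738). In both genes the heterozygous pools lay close together and above the wild-type pools. Leaving out heterozygous pool 1 (log2 changes 0.62 for Gabarap and 0.70 for Gabarapl1) or pool 2 (0.63 and 0.68) ended both calls, and keeping dim probe sets ended that of Gabarapl1. Gabarapl2 had 7727 and 8262 in the heterozygous pools, against 7378.3 and 6120.7 in the wild-type pools, and did not pass (log2 change 0.25, SE 0.15, limma adjusted p = 0.224). Map1lc3b, the isoform most used as a marker of autophagosomes, had 10586.8 and 9812.5 in the heterozygous pools, against 9120 and 7844.5 in the wild-type pools (log2 change 0.27, SE 0.14, limma adjusted p = 0.172). A dimmer probe set of Map1lc3b showed a log2 change of 0.42 (adjusted p = 0.0661). Map1lc3a and Map1lc3b differed in call, but the difference between them was not tested.

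**Figure D2:**
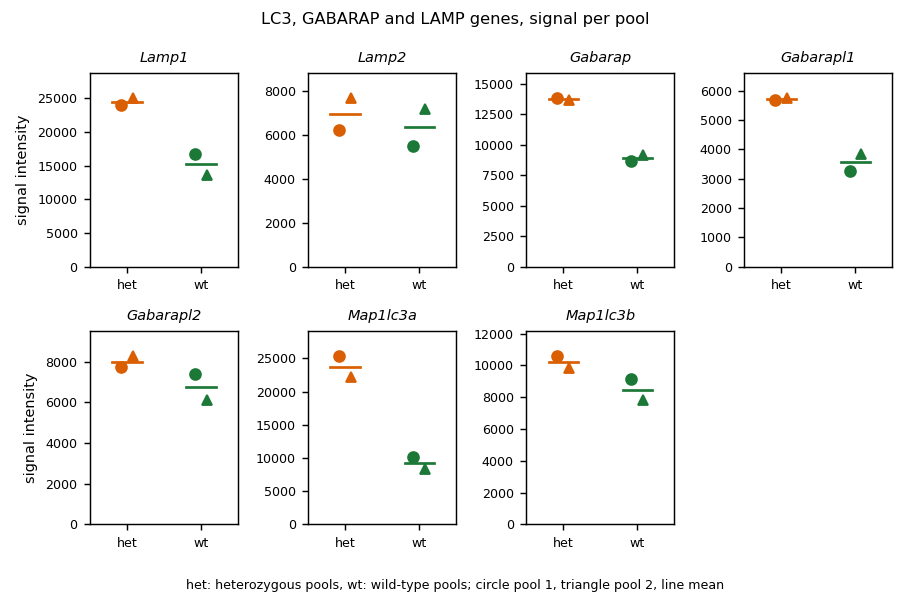
Signal intensity (linear scale from 0) of the LAMP, GABARAP and LC3 genes in each pool, heterozygous left of wild type, on each gene's brightest probe set. Lines are means of 2 pools. The pools of Lamp2 overlap between genotypes, and those of the other 6 genes do not.

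Of 8 tested ATG genes 1 rose (12.5%, against 19.5% of all tested named genes) and 0 fell by limma (1 and 0 at an unadjusted p under 0.05), and their log2 changes ran from -0.29 to 0.72 around a median of 0.16. Atg13, the partner of Ulk kinases in the complex that starts autophagy, had 1606.4 and 1643 in the heterozygous pools, against 918.7 and 1055.1 in the wild-type pools. The groups did not overlap, and the rise was 1.65-fold (log2 change 0.72, SE 0.18, limma adjusted p = 0.0135). Leaving out wild-type pool 1 (0.62) or either heterozygous pool (0.74 without pool 1 and 0.71 without pool 2) ended this call, as did keeping dim probe sets. With arrays centred on cardiomyocyte markers the Atg13 call was lost as well (0.06). Both heterozygous pools were also above both wild-type pools for Atg16l1, a scaffold of the conjugation system (log2 change 0.39, adjusted p = 0.137), and for Atg2a, a lipid transfer protein (0.42, adjusted p = 0.154). Atg2a passed without wild-type pool 1 (0.72). Atg16l1 passed on the common-median scale (0.57).

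The remaining ATG genes showed smaller log2 changes. Atg7, the activating enzyme, showed a log2 change of 0.11 (SE 0.32, adjusted p = 0.822). Atg5 had one of 0.07 (SE 0.21, adjusted p = 0.816), and Atg12, which is joined to Atg5, one of -0.11 (SE 0.17, adjusted p = 0.649). Atg12 turned to 0.07 on the common-median scale. Atg14, which directs a lipid kinase complex to autophagy, showed a log2 change of 0.22 (SE 0.25, adjusted p = 0.536). Atg4b, the protease that trims LC3 and GABARAP proteins before they are conjugated, had 851.3 and 671.5 in the heterozygous pools, against 958.2 and 894.6 in the wild-type pools. It was lower in both heterozygous pools and did not pass (log2 change -0.29, SE 0.22, adjusted p = 0.328). A value short of the threshold with 2 pools a group does not show that a gene was alike in both genotypes.

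Lamp1, a heavily glycosylated protein that lines the lysosome membrane, had 24053.2 and 24977.9 in the heterozygous pools, against 16728.1 and 13614 in the wild-type pools. Both heterozygous signals lay above both wild-type signals, a rise of 1.62-fold (log2 change 0.70, SE 0.14, limma adjusted p = 0.00535). Leaving out heterozygous pool 1 (0.73) or pool 2 (0.67), or keeping dim probe sets, ended the call. Centring arrays on cardiomyocyte markers ended it too (0.04). Lamp2, whose loss in people causes the heart muscle disorder Danon disease, had 6242.4 and 7663 in the heterozygous pools, against 5510.5 and 7196.4 in the wild-type pools. Its groups overlapped (log2 change 0.14, SE 0.18, limma adjusted p = 0.589). A dimmer Lamp2 probe set showed a log2 change of -0.35 (adjusted p = 0.250). The stretch of the Lamp1 promoter shown above holds 3 copies of CACGTG.

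Of 13 tested subunit genes of the vacuolar ATPase 2 rose (15.4%), 1 fell (7.69%) and 10 did not pass. Both shares lay below the 19.5% of all tested named genes that rose and the 19.5% that fell. Their log2 changes ran from -0.60 to 1.04 around a median of 0.18. Both rises were in V0, the membrane sector. Atp6v0a1, an isoform of the large a subunit along which protons pass, had 1012.7 and 1072.8 in the heterozygous pools, against 453.4 and 564.7 in the wild-type pools. The groups did not overlap, and the rise was 2.06-fold (log2 change 1.04, SE 0.23, limma adjusted p = 0.00752). Leaving out heterozygous pool 2 (log2 change 1.00) ended the call, as did keeping dim probe sets and centring arrays on cardiomyocyte markers (0.38). Atp6v0e2, a small membrane subunit, had 5118.7 and 3631.1 in the heterozygous pools, against 2361.9 and 3145.5 in the wild-type pools (1.58-fold, log2 change 0.66, SE 0.21, limma adjusted p = 0.0365). Its 2 heterozygous pools were far apart, and the call was lost on leaving out wild-type pool 1 (0.45) or heterozygous pool 1 (0.41), under cyclic loess (0.59) and under 4 of the other alternatives.

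The other V0 genes did not pass on their brightest probe sets. Atp6v0b, a proteolipid of the proton-carrying ring, had 7182.8 and 6579.4 in the heterozygous pools, against 5622.4 and 5157.3 in the wild-type pools. It was higher in both heterozygous pools (log2 change 0.35, SE 0.14, adjusted p = 0.0829) and passed on the common-median scale (0.53). Atp6v0e, the other small membrane subunit, showed a log2 change of -0.29 (adjusted p = 0.268), and Atp6v0d1, which links the sectors, one of -0.08 (adjusted p = 0.725). Atp6v0a2, another isoform of the a subunit, had 3 tested probe sets. The brightest had 4121.5 and 4014.7 in the heterozygous pools, against 4439.5 and 4148.1 in the wild-type pools, and did not pass (log2 change -0.08, adjusted p = 0.710). Another had 1326.2 and 1456.8 in the heterozygous pools, against 2359.5 and 3509.5 in the wild-type pools, and fell 2.07-fold (log2 change -1.05, SE 0.21, limma adjusted p = 0.00493). The third showed a log2 change of -0.32 (adjusted p = 0.214). All 3 were lower in both heterozygous pools, and they disagreed in size.

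In V1, the sector that hydrolyses ATP, 0 of 7 tested genes rose and 1 fell by limma (1 and 2 at an unadjusted p under 0.05). Atp6v1a, the catalytic subunit, had 2689.5 and 2380.1 in the heterozygous pools, against 3938.6 and 3719.8 in the wild-type pools, a decrease of 1.51-fold on its brightest probe set (log2 change -0.60, SE 0.16, limma adjusted p = 0.0157). The groups did not overlap there, but they did on its other probe sets, which had log2 changes of -0.10 (adjusted p = 0.692) and -0.12 (adjusted p = 0.644). The call was lost on the common-median scale (-0.42) and on leaving out wild-type pool 1 (-0.56) or either heterozygous pool (-0.69 without pool 1 and -0.51 without pool 2). Keeping dim probe sets ended it too. Atp6v1h, a regulatory subunit, had 1735.9 and 1888.4 in the heterozygous pools, against 2286.3 and 2671.3 in the wild-type pools, and did not pass (log2 change -0.45, SE 0.17, adjusted p = 0.0644). Atp6v1e1, of the stalk, had 4726.3 and 5431.8 in the heterozygous pools, against 3472.3 and 4044.8 in the wild-type pools (log2 change 0.44, SE 0.16, adjusted p = 0.0582). These 2 genes lay just outside the threshold in opposite directions. Atp6v1e1 passed on the common-median scale (0.61, adjusted p = 0.0122) and with the dimmest 60% of probe sets left out (0.44, adjusted p = 0.0481), but turned to -0.23 with arrays centred on cardiomyocyte markers. Atp6v1h passed under that centring (-1.11, adjusted p = 9.87e-04).

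Among the remaining V1 genes, Atp6v1d, of the rotating shaft, showed a log2 change of 0.40 (SE 0.21, adjusted p = 0.160) and passed on leaving out wild-type pool 2 (0.69). Atp6v1c1, which takes part in the assembly of V1 with V0, had one of 0.29 (SE 0.24, adjusted p = 0.360). Leaving out wild-type pool 2 made it pass (0.67), and leaving out wild-type pool 1 gave -0.08. Its signals were 2843.6 and 2714.6 in the heterozygous pools, against 1744.7 and 2940.8 in the wild-type pools, which bracketed them. Atp6v1g1, another stalk subunit, showed a log2 change of 0.18 (adjusted p = 0.364), and Atp6v1b2, the B subunit isoform of most tissues, one of -0.12 (adjusted p = 0.567).

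Of 8 tested cathepsin genes 3 rose, 3 fell and 2 did not pass, or 37.5% in each direction, where 19.5% of all tested named genes rose and 19.5% fell. In all 8 the genotypes did not overlap, as in 70.7% of all tested named genes. The rises were in Ctsd, Ctsb and Ctsf. With arrays centred on cardiomyocyte markers these 3 calls were lost, with log2 changes of 0.14 for Ctsd (adjusted p = 0.464), 0.10 for Ctsf (adjusted p = 0.683) and -0.15 for Ctsb. Ctsd, the main aspartic protease of lysosomes, had 22999.3 and 30531.7 in the heterozygous pools, against 16232.8 and 14331.9 in the wild-type pools. It averaged 26766 ± 5330 in heterozygous and 15282 ± 1340 in wild-type pools (SD, n = 2 each), a rise of 1.74-fold (log2 change 0.80, SE 0.16, limma adjusted p = 0.00530). Leaving out heterozygous pool 2, the higher one, ended the call (0.59), as did keeping dim probe sets. Ctsb, a widely expressed cysteine protease, had 18189.3 and 18298.4 in the heterozygous pools, against 13594 and 11980.8 in the wild-type pools (1.43-fold, log2 change 0.52, SE 0.13, limma adjusted p = 0.0154). Its call was lost on leaving out wild-type pool 2 (0.42) or either heterozygous pool (0.52 without pool 1 and 0.51 without pool 2), and under cyclic loess (0.29). Keeping dim probe sets or fitting without limma's trend ended the Ctsb call too. The dimmer Ctsb probe sets had log2 changes of 0.30 (adjusted p = 0.205) and 0.61 (adjusted p = 0.0714). Ctsf, another cysteine protease, had 1404.5 and 1251.5 in the heterozygous pools, against 829.4 and 734.8 in the wild-type pools (1.70-fold, log2 change 0.76, SE 0.20, limma adjusted p = 0.0148). Leaving out wild-type pool 2 (0.68) or heterozygous pool 1 (0.68) ended its call, as did keeping dim probe sets.

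**Figure D3:**
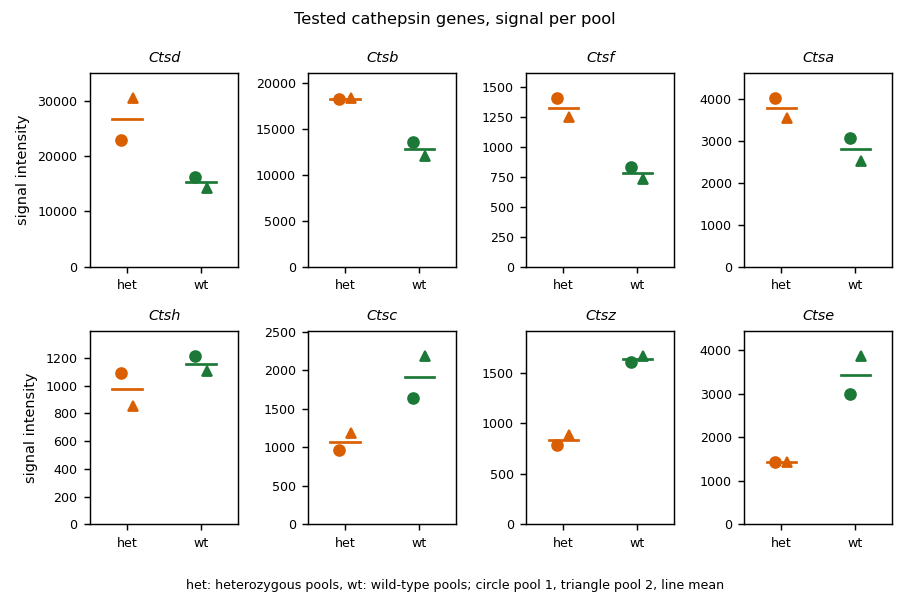
Signal intensity (linear scale from 0) of the 8 tested cathepsin genes in each pool, heterozygous left of wild type, on each gene's brightest probe set. Lines are means of 2 pools. On this deposited scale Ctsd, Ctsb, Ctsf and Ctsa lie higher in both heterozygous pools, and Ctsh, Ctsc, Ctsz and Ctse lower, but Ctsb and Ctsa turned below 0 with arrays centred on cardiomyocyte markers.

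Ctse, Ctsz and Ctsc fell under all scalings tried, and Ctse and Ctsz passed in all 17 alternatives. Ctse, an aspartic protease of endosomes in immune cells and of the stomach lining, was measured by 3 probe sets that all fell. The brightest had 1439.9 and 1431 in the heterozygous pools, against 3002.5 and 3860.7 in the wild-type pools, a decrease of 2.37-fold (log2 change -1.25, SE 0.18, limma adjusted p = 9.28e-04). Another had 609.3 and 680.8 in the heterozygous pools, against 3815.4 and 4368.6 in the wild-type pools, a decrease of 6.34-fold (log2 change -2.66, SE 0.18, limma adjusted p = 1.68e-05). The third fell 1.95-fold (log2 change -0.97, SE 0.17, adjusted p = 0.00226), so the direction was shared and the size was not. The brightest was so by little, with a mean over all pools of 2433.5 against 2368.5 for the one that fell 6.34-fold. The names of the brightest and the third end in _f_at and _i_at. Whether their probes also match other transcripts was not tested. Ctsz, a carboxypeptidase abundant in cells of the myeloid line, had 781 and 888.8 in the heterozygous pools, against 1609.3 and 1665.7 in the wild-type pools (1.97-fold lower, log2 change -0.97, SE 0.19, limma adjusted p = 0.00369). Ctsc, the dipeptidyl peptidase that activates granule proteases of immune cells, had 966.6 and 1183.6 in the heterozygous pools, against 1639.6 and 2184 in the wild-type pools (1.77-fold lower, log2 change -0.82, SE 0.21, limma adjusted p = 0.0140). Its other tested probe set fell 1.67-fold (log2 change -0.74, adjusted p = 0.0122). On the brighter probe set the Ctsc call was lost on leaving out wild-type pool 2 (-0.62) or heterozygous pool 1 (-0.68), and with dim probe sets kept.

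Ctsa, a serine carboxypeptidase that also protects other lysosomal enzymes, had 4007.1 and 3539.8 in the heterozygous pools, against 3065.4 and 2516.3 in the wild-type pools. It did not pass (log2 change 0.44, SE 0.17, adjusted p = 0.0678) but did on the common-median scale (0.62). Ctsh, an aminopeptidase, had 1092.7 and 856.7 in the heterozygous pools, against 1213 and 1105.3 in the wild-type pools (log2 change -0.26, SE 0.21, adjusted p = 0.355). The 3 untested genes were dim. Ctsw, of cytotoxic lymphocytes, had 220.6 and 81.6 in the heterozygous pools, against 284.9 and 430.9 in the wild-type pools. Ctsg, a granule protease of neutrophils, had 29.6 and 12.6 in the heterozygous pools, against 33.4 and 16.9 in the wild-type pools, all below the floor of 36.4. Cts7, a cathepsin known from the rodent placenta, had 1.6 and 3.2 in the heterozygous pools, against 46 and 18.2 in the wild-type pools, of which 3 values were below the floor.

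Markers of immune cells were measured beside the cathepsins. Of 13 tested macrophage markers (19 listed, 18 on the array) 1 rose (7.69%), 3 fell (23.1%) and 9 did not pass. Among all tested named genes 19.5% rose and 19.5% fell, so the share that fell was near that of all genes. The list's median was -0.20 on the log2 scale. Their summed signal was 33749 and 33555 in the heterozygous pools, against 46918 and 44316 in the wild-type pools. Most of that fall was in Laptm5 alone, with 6378.2 and 5609.8 in the heterozygous pools, against 16238.8 and 16536.4 in the wild-type pools. The decreases were in Laptm5 (log2 change -1.45), a lysosomal membrane protein of blood cells, in Cd68 (-0.65), a lysosomal membrane protein of macrophages, and in Tyrobp (-0.53), a signalling adaptor of myeloid cells. Mrc1, the mannose receptor of tissue macrophages, rose (0.70). The receptor gene Csf1r (0.05, adjusted p = 0.847) and the complement genes C1qa (0.13, adjusted p = 0.510) and C1qc (0.10, adjusted p = 0.690) did not pass. Of the granulocyte and mast cell markers 6 of 16 could be tested, and 2 fell (S100a8, log2 change -1.69, and Tpsb2, -0.996). That was 33.3% of those tested, against 19.5% of all tested named genes. The other 4 did not pass (Ltf 0.29, Elane 0.28, Cma1 0.24 and Camp -0.25), and the list's median log2 change was -0.01. Of the cytotoxic lymphocyte markers 2 of 8 on the array could be tested, and both fell (Gzma, log2 change -2.36, and Ccl5, -1.74). Lymphocyte and thymus markers had a median log2 change of -2.95. The part of these cells in the decreases of Ctse, Ctsz and Ctsc was not tested.

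Of the 8 genes with several tested probe sets, 3 had probe sets that differed in call: Ctsb, Atp6v0a2 and Atp6v1a. In all 3 the probe sets shared their sign. For Lamp2 and Atp6v1b2 the sign itself differed between probe sets, and none of those values passed. Over probe sets in place of genes, 10 of 48 tested rose, 8 fell and 30 did not pass, where 17.9% of all 7453 tested probe sets rose and 20.4% fell. The larger number of decreases came from the further probe sets of Ctse, Ctsc and Atp6v0a2.

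**Figure D4:**
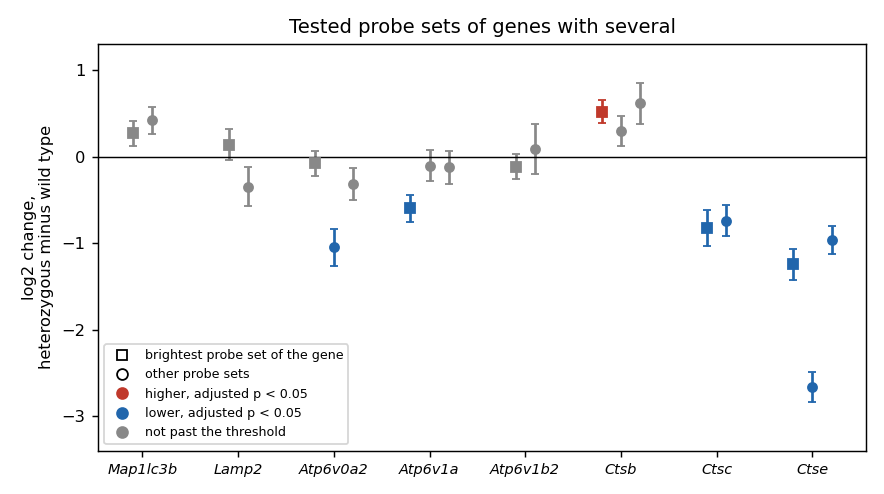
Log2 change (heterozygous minus wild type, 2 pools each) of every tested probe set of the 8 genes with several, with limma's SE. Squares are the brightest probe set of a gene. Probe sets of Ctse span -2.66 to -0.97 and those of Atp6v0a2 span -1.05 to -0.08.

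Other lysosomal hydrolases and membrane proteins were counted from a wider list. Of 32 tested (53 listed, 36 on the array) 6 rose (18.8%), 3 fell (9.38%) and 23 did not pass, where 19.5% of all tested named genes rose and 19.5% fell. The list's median log2 change was 0.19, against 0.02 over all tested named genes. Smpd1, the acid sphingomyelinase, had 32506.3 and 30182 in the heterozygous pools, against 14662.4 and 11649.9 in the wild-type pools (2.40-fold, log2 change 1.26, SE 0.15, limma adjusted p = 3.39e-04). Laptm4b, a lysosomal membrane protein, rose 2.03-fold. The decreases included Npc2, which hands cholesterol to its partner Npc1, with 3859.4 and 3975.7 in the heterozygous pools, against 7973.5 and 7747.7 in the wild-type pools (2.01-fold lower, limma adjusted p = 7.86e-04). Npc1 itself rose 1.65-fold (log2 change 0.72, adjusted p = 0.00968). Acp5, an acid phosphatase of osteoclasts and macrophages, fell (log2 change -1.23, adjusted p = 0.00118). The accessory pump subunits went opposite ways on the deposited scale: Atp6ap1 rose (log2 change 0.61, adjusted p = 0.0113) and Atp6ap2 fell (-0.68, adjusted p = 0.0220). The rise of Atp6ap1 was smaller than the 0.66 by which centring on cardiomyocyte markers lowered every log2 change.

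Of 19 tested genes that act in autophagy or control it (36 listed, 20 on the array) 6 rose, 0 fell and 13 did not pass by limma (6 higher and 1 lower at an unadjusted p under 0.05). The share that rose was 31.6%, against 19.5% of all tested named genes, of which 19.5% fell. The list's median log2 change was 0.20. Bnip3, a receptor that marks mitochondria for autophagy, had 5291.6 and 4787.3 in the heterozygous pools, against 2417.6 and 2351.1 in the wild-type pools (2.11-fold, log2 change 1.08, SE 0.15, limma adjusted p = 8.23e-04). Tsc2, a brake on the growth kinase Mtor, rose 2.14-fold. Sqstm1, the cargo receptor p62 that binds LC3, had 12596.8 and 11878.4 in the heterozygous pools, against 7822 and 6655.2 in the wild-type pools (1.70-fold, log2 change 0.76, SE 0.14, limma adjusted p = 0.00359). Ulk1, the starting kinase and partner of Atg13, rose 1.64-fold (log2 change 0.72, adjusted p = 0.0107). Becn1, of the lipid kinase complex, showed a log2 change of -0.06 (adjusted p = 0.784). Of the MiT/TFE factors on this list, Mitf rose (log2 change 0.67, adjusted p = 0.0222) and Tfeb was too dim to test. The change of Mitf equalled the 0.67 median of the cardiomyocyte markers. Centring arrays on those markers lowered every log2 change by 0.66, on this list and on that of lysosomal hydrolases too. The part of heart muscle cells in these rises was not tested.

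The cathepsin inhibitors and the remaining cathepsins were counted from the same fit. Of the 19 listed cystatin genes 6 were on the array and 3 were tested. Of these 1 rose and 1 fell (33.3% each), where 19.5% of all tested named genes rose and 19.5% fell. Cstb, an inhibitor inside cells, had 5275.9 and 6556 in the heterozygous pools, against 21039.9 and 20564.4 in the wild-type pools (log2 change -1.82, SE 0.15, limma adjusted p = 5.1e-05). Cst3, the secreted cystatin C, had 45166.7 and 47878.7 in the heterozygous pools, against 29819.6 and 35452.7 in the wild-type pools (log2 change 0.52, SE 0.14, limma adjusted p = 0.0162). On the deposited scale both inhibitors differed between the genotypes in opposite directions, with no overlap, as in 70.7% of all tested named genes. Centring arrays on cardiomyocyte markers lowered every log2 change by 0.66, which is more than the 0.52 of Cst3. Kng1, the remaining tested gene of the list, overlapped and did not pass (log2 change -0.40, adjusted p = 0.282). Of the cathepsins left out of the group, Ctsl (log2 change -1.40) and Ctss (-1.12) fell, and Ctsk (0.41, adjusted p = 0.236) did not pass.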

How the data were processed

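The authors deposited 1 linear intensity per array for each of 12488 probe sets, with no log taken, except that 66 control probe sets had no value on the array of heterozygous pool 2. How probes were summarised is not given in the sources. Trimmed means (2% off each end) differed by at most 1.01-fold between arrays, so the values were used as deposited. The 66 controls were removed from all arrays. Intensities below the 10th percentile (36.4) were raised to it, log2 was taken, and the 40% of probe sets with the lowest mean were not tested, which left 7453. limma 3.58.1 in R 4.3.3 (lmFit, eBayes with a trend) was fitted with genotype as the only term, on 2 heterozygous and 2 wild-type pools, and p-values were adjusted by Benjamini-Hochberg over all tested probe sets, with a threshold of 0.05. With 2 pools a group, the smallest two-sided p of an exact permutation test is 0.333.

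Only the 10833 probe sets with 1 gene symbol in the platform annotation were named, and of the symbols 0 changed when matched by gene ID to the RefSeq genes of GRCm38.p6. Every gene of the group is named. Of the other lists the members with the smallest p are named, up to 4, and genes beyond these were chosen after their values were seen; markers of cardiomyocytes, endothelium, fibroblasts and lymphocytes are given as counts. The members and lists were chosen with earlier results of these data known. The alternatives were other scalings, floors, filters on dim probe sets, moderation, probe sets and a block for the pool number, and each pool left out in turn. The centring on cardiomyocyte markers was added after seeing the data. The fit was tested on simulated data. The number of arrays limits the precision. Figures were drawn with matplotlib 3.10.9.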

Additional observations from a re-analysis of the deposited data

How the results depend on the processing

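Of 36 tested genes, 10 were called higher and 4 lower, and 2856 of all tested probe sets were called. Without the filter on dim probe sets these counts were 2, 2 and 1205. With arrays centred on cardiomyocyte markers 1 gene was called higher and 16 lower. Leaving out each pool in turn gave 3 to 10 genes higher, 2 to 3 lower and 1707 to 2291 calls in all, with fewer arrays in each fit and the lone pool of a genotype assumed to vary like the other genotype's. Other floors, other percentages of dim probe sets left out, other moderation, the dimmest probe set of a gene and the other scalings kept all 3 counts within 1.5 times.

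The labels do not say that equal pool numbers share a batch or day. Deviations of equally numbered pools from their genotype means correlated at 0.158 across probe sets. With the pool number as a replicate block, 12 genes were called higher, 5 lower and 3035 probe sets in all. Atp6v0b, Atp6v1e1 and Ctsa were added as higher and Atp6v1h as lower, and Atp6v0e2 was lost.

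Log2 changes that turned sign belonged to genes that had not passed, except under cardiomyocyte centring, where the called genes Ctsb (-0.15) and Gabarap (-0.034) turned too. That centring also turned Atg14 (-0.44), Atg16l1 (-0.28), Atg2a (-0.24), Atg5 (-0.59), Atg7 (-0.55), Atp6v0b (-0.31), Atp6v1c1 (-0.37), Atp6v1d (-0.27), Atp6v1e1 (-0.23), Atp6v1g1 (-0.48), Ctsa (-0.22), Gabarapl2 (-0.41), Lamp2 (-0.53) and Map1lc3b (-0.39). A common median turned Atg12 (0.07), Atp6v0a2 (0.10), Atp6v0d1 (0.10) and Atp6v1b2 (0.062). Cyclic loess turned Atp6v1g1 (-0.025) and Lamp2 (-0.0059). The dimmest probe set turned Atp6v1b2 (0.087) and Lamp2 (-0.35). Leaving out each pool in turn, the range crossed 0 for Atg5 (-0.064 to 0.21), Atg7 (-0.12 to 0.34), Atp6v0d1 (-0.22 to 0.058), Atp6v1b2 (-0.24 to 0.0007), Atp6v1c1 (-0.082 to 0.67) and Lamp2 (-0.057 to 0.33), each at its far end without wild-type pool 1, and for Lamp2 also without heterozygous pool 2 (-0.01). The cause was not tested.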

Other observations

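Probe sets too dim to test gave further values for genes with a tested one. A dim probe set of Atp6v0a1 had 92.3 and 44.5 in the heterozygous pools, against 124 and 109.9 in the wild-type pools, below them and opposite in direction to the tested probe set. That of Ctsb had 274 and 349.5 in the heterozygous pools, against 55.3 and 196.6 in the wild-type pools, in the direction of the tested ones. That of Ctsc had 248.4 and 227.9 in the heterozygous pools, against 334.1 and 326.9 in the wild-type pools, also in the direction of the tested ones. That of Atg14 had 22.8 and 159.1 in the heterozygous pools, against 93.7 and 52.3 in the wild-type pools, with overlap.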
